A study of Mus musculus with 6 samples.

Results

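The genes described here are 36 leukocyte adhesion genes: integrin α and β chains, E-selectin, the selectin ligand Selplg, and adhesion molecules of the immunoglobulin superfamily with Cd47. They were listed by name, with earlier results of these data known, and all 36 had a probe set annotated with that single symbol, among 19938 genes measured in all. For Itgad and Cd47, which have several such probe sets, the one with the highest mean was used. The data are log2 expression values from mouse bone marrow cells on one-colour Affymetrix whole-transcript arrays. The MN1 group, 3 arrays titled "mn cells", held marrow cells transduced with the retroviral vector MSCV-MN1-IRES/YFP. The control group, 3 arrays titled "gfp control", held marrow cells transduced with the empty vector. MN1 is a transcriptional coregulator that is highly expressed in some myeloid leukaemias. Both groups were sorted for reporter-positive cells at 72 hours. The reporter is a yellow fluorescent protein in the series design and GFP in the sample labels. The sources used here give no strain, age, number of donor animals or species of the MN1 cDNA. Each group is a bulk sort of transduced marrow cells, in which only the MN1 vector carries a transgene besides the reporter.

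Integrins are receptors made of one α and one β chain, and the pair decides the ligand. β1 pairs with many α chains to bind fibronectin, laminin and collagen. β2 is the leukocyte chain that pairs with the α chains encoded by Itgal, Itgam, Itgax and Itgad to bind ICAMs and complement. β7 pairs with the chains encoded by Itga4 and Itgae and directs lymphocytes and mast cell progenitors to mucosa. Selectins and their sialylated ligands capture rolling leukocytes before integrins arrest them. In marrow, integrins and Vcam1 also hold stem and progenitor cells in the niche. In bulk RNA, fewer cells of a type and less RNA per cell cannot be told apart, so each value below is an average over whatever cells were sorted.

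The arrays had medians of 6.51 to 6.55 over the genes tested. Over all probe sets the medians ran from 5.82 on MN1 replicate 3 to 6.01 on MN1 replicate 1. Mn1 itself lay between 6.08 and 6.62 on the MN1 arrays and between 4.80 and 5.41 on the empty vector arrays, so its values matched the labels on every array. The difference was 1.2 ± 0.21 (SE, log2; limma adjusted p = 0.584). These values do not tell vector transcript from that of the cells' own gene. Markers of monocytes and macrophages, known residents of marrow, averaged 9.35 to 9.97 on the empty vector arrays and 10.11 to 10.67 on the MN1 arrays, and markers of stromal cells 5.71 to 5.82 and 5.58 to 5.68. Neither list overlapped between the groups, but the stromal values are low, and the highest MN1 array lay just below the lowest control. Of all genes 43.3% were higher with MN1, and 57.2% with the dimmest 40% of genes removed. Lower values with MN1 were therefore more common among dim genes. Where nothing states that samples came from separate animals, p-values measure only the spread between these samples; the series design does speak of 3 independent experiments.

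The comparison of MN1 with the empty vector asks whether adhesion genes differ within days of MN1 expression. The largest separations were in F11r, which was 2.07-fold higher with MN1, and in Itgb7, which was 1.65-fold lower. By limma with Benjamini-Hochberg adjustment over all genes, 0 of the 36 genes passed an adjusted p under 0.05, where 0% of all 19938 genes did; the smallest adjusted p among the 36 was 0.579. At an unadjusted p under 0.05 by the same test, 4 of the 36 genes were counted, against 8.40% of all genes. F11r and Itga7 were higher with MN1, 2 of 36 against 4.17% of all genes, and Itgb7 and Itgb4 lower, 2 of 36 against 4.23%. None of the differences below is therefore a call, and each is given as a measured value.

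In 5 of the 36 genes, or 13.9%, the 2 groups of arrays were fully separated, against 16.0% of all genes, so that count is near the background. MN1 lay above in 3 of them, F11r, Itga7 and Itgb1, against 5.71% of all genes, and below in 2, Itgb7 and Itgb4, against 10.3%. In sign, 15 of the 36 were higher with MN1 and 21 lower, where 43.3% of all genes were higher. The median difference of the 36 was -0.03, and that of all genes was also -0.03. Differences over 0.5 on the log2 scale were seen in 8 of the 36, or 22.2%, and in 6.40% of all genes. In 5 of these 8, Itgax, Itgb2l, Itga6, Alcam and Vcam1, the groups overlapped. All 8 lie outside the dimmest 40% of genes, whereas the 6.40% includes dim genes, whose differences RMA compresses. The share among brighter genes alone was not counted.

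**Figure D1:**
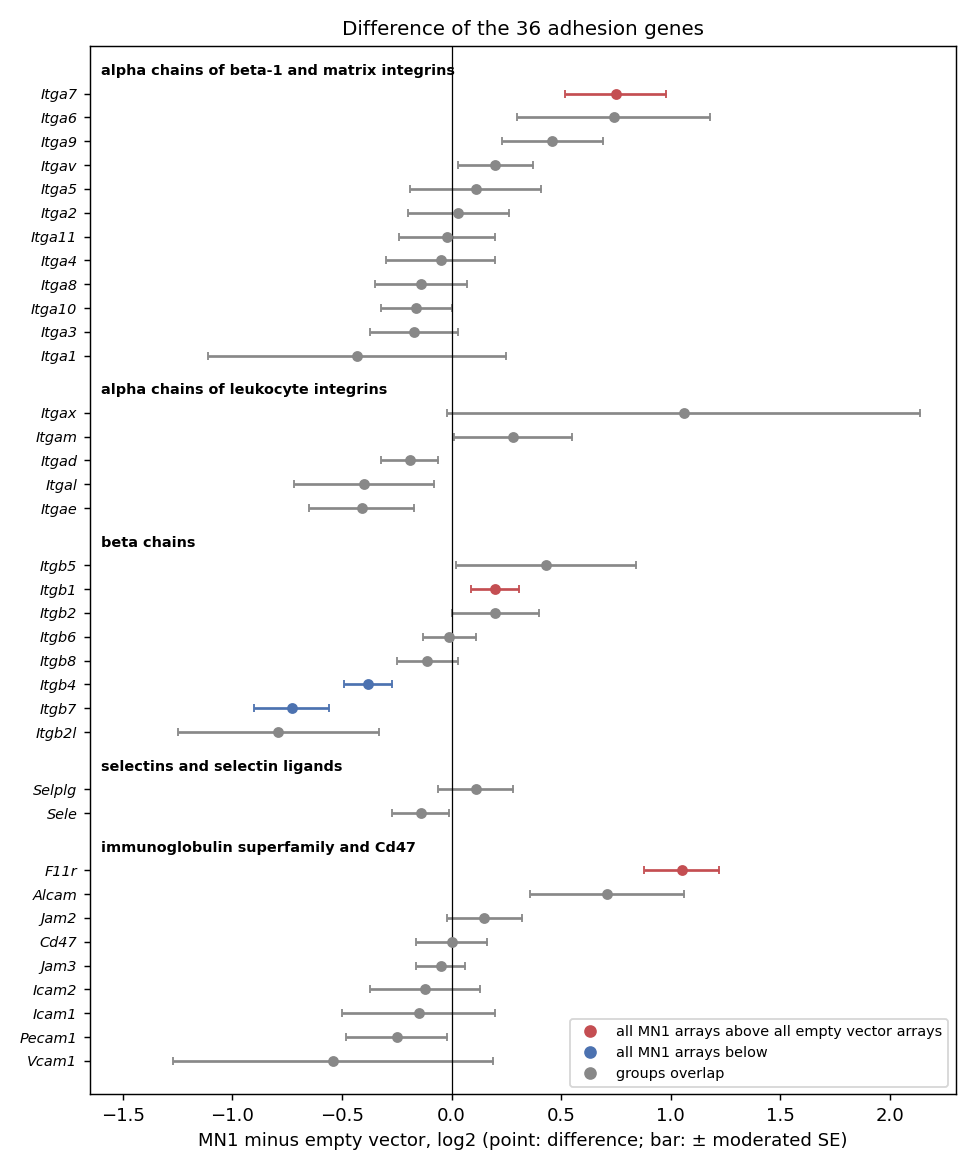
Difference between MN1 and empty vector arrays (log2, horizontal axis) for the 36 adhesion genes, grouped by role; points are differences and bars are ± the moderated SE, with 3 arrays per group. F11r, Itga7 and Itgb1 (red) lie above 0 and Itgb7 and Itgb4 (blue) below with no overlap between groups, while Itgax at 1.06 has the widest bar.

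The α chains of the β1 and matrix integrins split evenly, with 6 of 12 higher with MN1 and 6 lower and a median difference of 0.01. Itga7, a laminin-binding chain best known from muscle, was the one α chain whose groups did not overlap. Its values were 5.85, 5.82 and 5.91 with the empty vector and 6.13, 7.08 and 6.61 with MN1. The empty vector arrays were tightly grouped, and the MN1 arrays lay above them at spread-out levels. The difference was 0.75 ± 0.23 (SE, log2; limma adjusted p = 0.584), and it ran from 0.51 to 0.99 when each array was left out in turn. The values are low on the scale of these arrays, where RMA compresses differences.

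Itga6, the laminin-binding chain CD49f of stem and progenitor cells and platelets, measured 9.42, 8.65 and 8.82 with the empty vector and 10.59, 9.64 and 8.88 with MN1. MN1 replicates 1 and 2 were the highest of the arrays, but MN1 replicate 3 lay among the controls, so the groups overlapped. The difference was 0.74 ± 0.44 (SE, log2; limma adjusted p = 0.618), and it was 0.30 without MN1 replicate 1 and 1.15 without MN1 replicate 3. Markers of megakaryocytes and platelets, of which 15 of 19 were measured, averaged 9.48, 8.43 and 9.17 on the empty vector arrays and 10.42, 9.82 and 8.90 on the MN1 arrays. These markers were highest on MN1 replicates 1 and 2 as well; their part in the Itga6 values was not tested. Itga2b, the platelet chain αIIb from that list, differed by 0.85 ± 0.43 (SE) and its partner Itgb3 by 0.54 ± 0.65 (SE), both with overlapping groups.

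Itga9, whose chain binds Vcam1 and tenascin, measured 6.40, 6.87 and 6.55 with the empty vector and 6.88, 7.53 and 6.79 with MN1. Only MN1 replicate 3 fell below the highest control array, by a small margin. The difference was 0.46 ± 0.23 (SE, log2; limma adjusted p = 0.594), and it was 0.23 without MN1 replicate 2. Itga1, a collagen receptor chain, behaved in the opposite way in its spread: 8.21, 9.46 and 6.52 with the empty vector against 7.63, 7.61 and 7.67 with MN1. The MN1 arrays agreed to an SD of 0.03 while the controls had an SD of 1.48. The difference of -0.43 ± 0.68 (SE, log2; limma adjusted p = 0.839) became 0.27 without empty vector replicate 2 and -1.20 without empty vector replicate 3, so its sign rests on the first of these arrays.

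The other matrix-binding α chains differed by at most 0.20 in either direction. Itga4, which pairs with β1 or β7 and holds progenitors to Vcam1, measured 9.72, 10.13 and 10.40 with the empty vector and 9.59, 10.14 and 10.36 with MN1. The groups covered nearly the same range, and the difference was -0.05 ± 0.25 (SE, log2). Itgav, the chain that pairs with Itgb5 and binds vitronectin, measured 9.11, 8.90 and 8.60 against 9.32, 8.99 and 8.91, a difference of 0.20 ± 0.17 (SE). Itga5, the fibronectin receptor chain, differed by 0.11 ± 0.30 (SE). The differences of Itga2, Itga3, Itga8, Itga10 and Itga11 lay between -0.17 and 0.03, each with overlapping groups, and Itga3, Itga8 and Itga11 were among the dimmest 40% of genes.

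Itgb1, the common partner of most of these α chains, measured 10.98, 10.89 and 10.93 with the empty vector and 11.29, 11.14 and 10.98 with MN1. The MN1 arrays lay above the controls, but MN1 replicate 3 did so by only 0.0031 on the log2 scale. The difference was 0.20 ± 0.11 (SE, log2), or 1.15-fold, with a limma adjusted p of 0.600. After quantile normalization, or with arrays centred on the median of the genes tested, the groups overlapped.

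Among the other β chains, Itgb7 stood lower with MN1 on every array. It measured 9.67, 9.75 and 9.71 with the empty vector, an SD of 0.04, and 9.15, 8.61 and 9.19 with MN1, an SD of 0.32. The nearest arrays of the groups were 0.49 apart, and MN1 replicate 2 was the lowest. The difference was -0.73 ± 0.17 (SE, log2; limma adjusted p = 0.584, unadjusted p = 0.00435), and it stayed between -0.83 and -0.54 with each array left out. Its α partners did not separate: Itga4 is given above, and Itgae, the CD103 chain of mucosal lymphocytes and some dendritic cells, measured 6.38, 6.11 and 5.94 with the empty vector and 5.43, 6.24 and 5.52 with MN1. MN1 replicate 2, the lowest array for Itgb7, was within the control range for Itgae, and the difference there was -0.41 ± 0.24 (SE; adjusted p = 0.615), or -0.67 without that array.

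Markers of cell types known to carry β7 were set beside Itgb7. Markers of T and NK cells, 14 of 16 measured, averaged 6.01, 5.98 and 6.26 on the empty vector arrays and 5.59, 5.76 and 5.90 on the MN1 arrays, without overlap. These values are low, and lower values with MN1 were more common among dim genes. Markers of mast cells, basophils and eosinophils, 18 of 18 measured, averaged 9.98, 9.87 and 8.96 against 8.25, 9.27 and 8.79, with overlap. Itgb7 was lowest on MN1 replicate 2, and both lists were lowest on MN1 replicate 1. RMA values have no zero, so no marker can be called absent, and the part of these cells in the Itgb7 values was not tested.

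Itgb4, which pairs with the Itga6 chain in epithelial hemidesmosomes, measured 6.25, 6.43 and 6.22 with the empty vector and 6.05, 5.82 and 5.90 with MN1. All MN1 arrays lay below, with a gap of 0.17, at values that are low on the scale of these arrays, as for Itga7. The difference was -0.38 ± 0.11 (SE, log2; limma adjusted p = 0.584), opposite in sign to that of its partner Itga6. Itgb5, a vitronectin receptor chain of macrophages, measured 8.58, 9.14 and 9.01 against 9.98, 8.38 and 9.64. The MN1 arrays held both the highest values and the lowest one, and the difference of 0.43 ± 0.41 (SE) had an adjusted p of 0.732. It was 0.10 without MN1 replicate 1 and 0.90 without MN1 replicate 2. Itgb6 and Itgb8, chains that pair with Itgav and activate TGF-β, differed by -0.01 ± 0.12 and -0.11 ± 0.14 (SE), and both were among the dimmest 40% of genes.

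**Figure D2:**
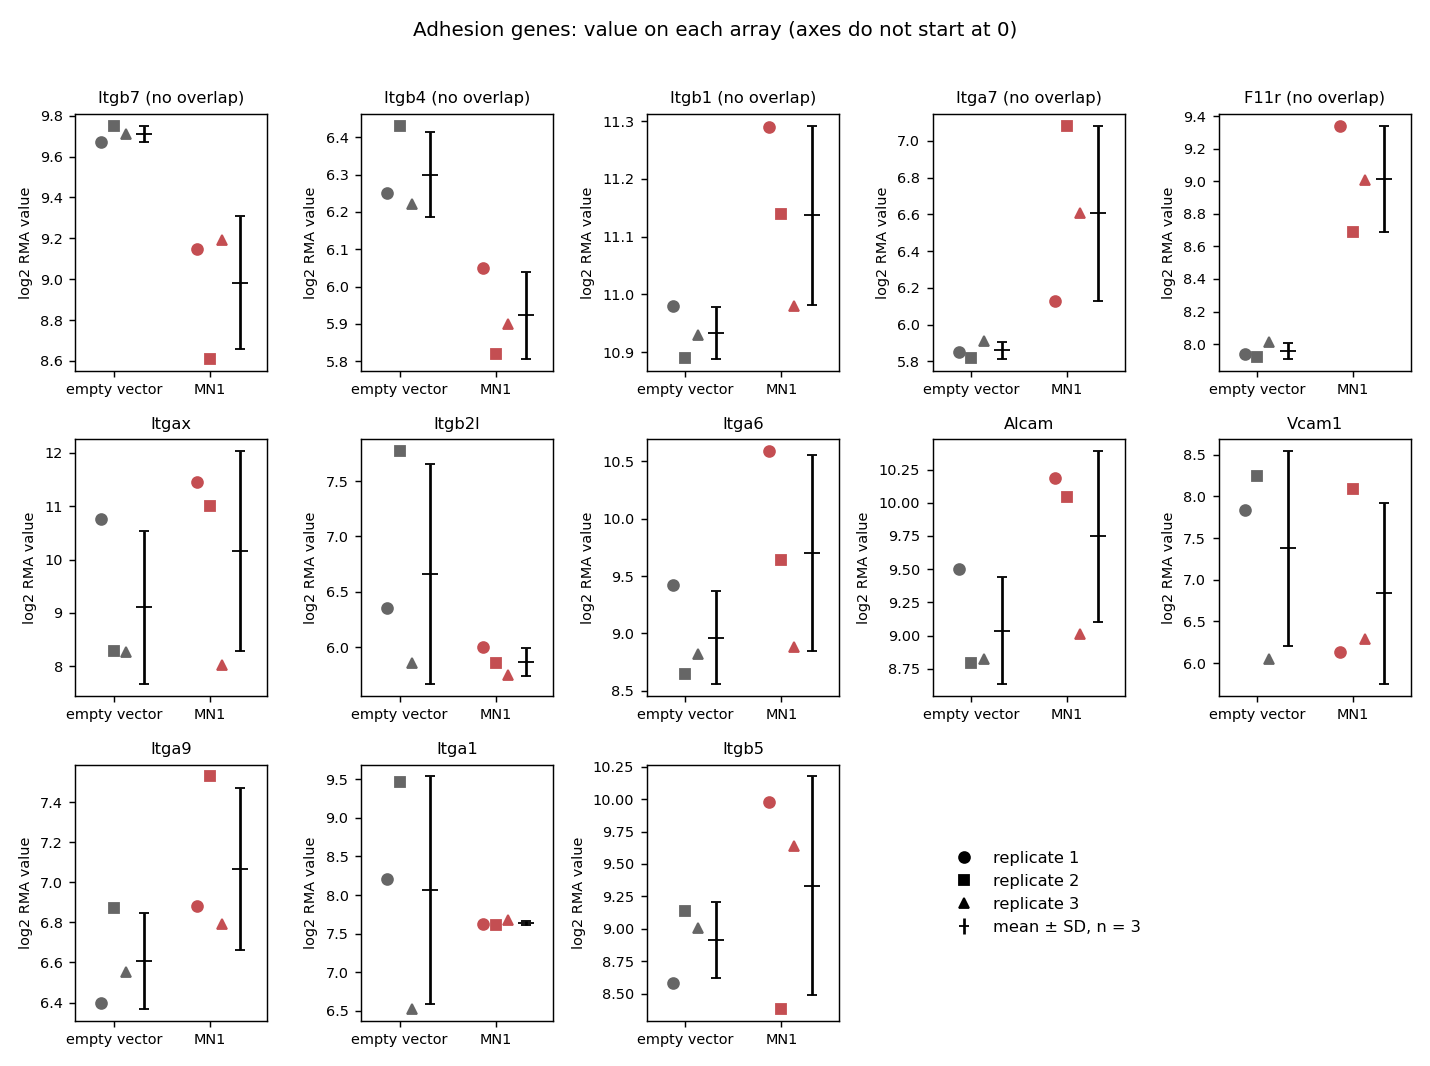
Log2 RMA value on each array for the 5 adhesion genes whose groups did not overlap (top row) and for the 8 others with the largest absolute difference; symbols mark replicates, and the bar is the mean ± SD of 3 arrays. Empty vector arrays of F11r, Itga7 and Itgb7 have SDs of 0.04 or 0.05, whereas Itgax and Vcam1 split within each group.

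The β2 integrins of leukocytes differed in both directions, and none of their genes had separated groups. Itgb2, the common β chain, measured 11.75, 11.97 and 11.36 with the empty vector and 12.18, 11.77 and 11.73 with MN1, a difference of 0.20 ± 0.20 (SE, log2; limma adjusted p = 0.734). Itgam, the CD11b chain of neutrophils and monocytes, measured 11.09, 11.62 and 11.42 against 11.97, 11.07 and 11.92, a difference of 0.28 ± 0.27 (SE), or 0.57 without MN1 replicate 2. In both genes MN1 replicate 1 was the highest array, and the groups overlapped. Itgal, the LFA-1 chain of lymphocytes and most leukocytes, measured 10.15, 10.32 and 10.50 against 9.36, 9.77 and 10.65. MN1 replicates 1 and 2 lay below every control and MN1 replicate 3 above every control, with a difference of -0.40 ± 0.32 (SE; adjusted p = 0.685). It was -0.11 without MN1 replicate 1 and -0.76 without MN1 replicate 3. Itgad, whose chain binds Vcam1 and ICAMs on macrophages, differed by -0.19 ± 0.13 (SE).

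Itgax, the CD11c chain of dendritic cells and some macrophages, had the widest range of the 36 genes, 3.44 on the log2 scale. It measured 10.76, 8.29 and 8.26 with the empty vector and 11.46, 11.01 and 8.02 with MN1. In each group the arrays fell far apart: empty vector replicate 1 and MN1 replicates 1 and 2 were high, and the other 3 arrays low. The difference of 1.06 ± 1.08 (SE, log2; limma adjusted p = 0.740) ran from 0.42 without MN1 replicate 1 to 2.14 without MN1 replicate 3. Without empty vector replicate 1 it was 1.89. In RefSeq (GRCm38.p6) Itgam, Itgax and Itgad follow each other on chromosome 7 with no other protein-coding gene between them, yet neither neighbour shared this split of the arrays. The split was not particular to Itgax. The same 3 arrays were the highest for Itga6, Alcam, Icam1, Itgav and Jam2 among the 36, with smaller ranges. They were also the highest for Itgb3 and for the megakaryocyte and platelet and the endothelial marker lists. Dendritic cell markers, 15 of 15 measured, averaged 7.81, 7.40 and 7.71 with the empty vector and 7.60, 7.66 and 7.28 with MN1. Monocyte and macrophage markers, 19 of 22 measured, averaged 9.79, 9.35 and 9.97 against 10.67, 10.11 and 10.38. MN1 replicate 3, the lowest array for Itgax, was also the lowest for the dendritic list, while the monocyte list lay above every control there. The part of these cells in the Itgax values was not tested.

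Itgb2l, a β2-like chain of neutrophils, measured 6.35, 7.77 and 5.86 with the empty vector and 6.0, 5.86 and 5.75 with MN1. Empty vector replicate 2 stood far above the rest. The difference of -0.79 ± 0.46 (SE, log2; limma adjusted p = 0.617) was -0.23 without that array and -1.19 without empty vector replicate 3. Late granulocyte markers, 18 of 20 measured, averaged 9.85, 11.06 and 8.49 on the empty vector arrays and 8.70, 8.86 and 8.97 on the MN1 arrays. Among the controls the order of the arrays was the same for Itgb2l and for these markers, with replicate 2 highest and replicate 3 lowest; on the MN1 arrays it was not. The part of granulocytes in the Itgb2l values was not tested.

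Neither Selplg nor Sele had groups that separated. Selplg, the PSGL-1 ligand that lets leukocytes roll on P-selectin, measured 11.37, 11.70 and 11.11 with the empty vector and 11.44, 11.42 and 11.67 with MN1, a difference of 0.11 ± 0.17 (SE, log2; limma adjusted p = 0.826). The ranges of the groups overlapped. Sele, the E-selectin of activated endothelium, differed by -0.14 ± 0.13 (SE) and was among the dimmest 40% of genes.

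Among the immunoglobulin superfamily genes, F11r had the largest difference and the smallest p. F11r encodes junctional adhesion molecule A, a receptor of tight junctions, platelets and leukocytes that binds the integrin encoded by Itgal and Itgb2. It measured 7.94, 7.92 and 8.01 with the empty vector, an SD of 0.05, and 9.34, 8.69 and 9.01 with MN1, an SD of 0.32. Every MN1 array lay at least 0.68 above every control. The difference was 1.05 ± 0.17 (SE, log2), or 2.07-fold, with an unadjusted p of 0.000623 and an adjusted p of 0.579 (limma), and it ran from 0.89 to 1.21 with each array left out. Megakaryocyte and platelet markers averaged 8.43 to 9.48 with the empty vector and 8.90 to 10.42 with MN1, and endothelial markers, 14 of 14 measured, 6.29 to 6.49 against 6.40 to 6.85; both lists overlapped between the groups. Monocyte and macrophage markers, 15 of 19 higher with a median difference of 0.80, averaged 9.35 to 9.97 with the empty vector and 10.11 to 10.67 with MN1, and like F11r did not overlap. The T and NK, stromal and erythroid lists did not overlap either, with MN1 below in each. The T and NK and stromal lists lie at low values, and lower values with MN1 were more common among dim genes. Erythroid markers, 11 of 16 measured, averaged 7.06 to 7.35 with the empty vector and 6.57 to 7.03 with MN1. The part of these cells in the F11r values was not tested.

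The relatives of F11r had smaller differences. Jam2, a vascular junction protein, differed by 0.15 ± 0.17 and Jam3, a stem cell and junction protein, by -0.05 ± 0.11 (SE, log2), and both were among the dimmest 40% of genes. Alcam, the CD166 receptor for CD6 found on progenitors and macrophages, measured 9.50, 8.79 and 8.82 with the empty vector and 10.19, 10.04 and 9.01 with MN1. MN1 replicates 1 and 2 lay above every control and MN1 replicate 3 below empty vector replicate 1. The difference was 0.71 ± 0.35 (SE; limma adjusted p = 0.594), with 0.48 without MN1 replicate 1 and 1.08 without MN1 replicate 3.

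Vcam1, the ligand of the Itga4 integrins on stroma and marrow macrophages, split within both groups. It measured 7.84, 8.24 and 6.05 with the empty vector and 6.13, 8.09 and 6.29 with MN1. Empty vector replicates 1 and 2 and MN1 replicate 2 were high and the other 3 arrays low. The difference was -0.54 ± 0.73 (SE, log2; limma adjusted p = 0.806), and it was -0.11 without empty vector replicate 2 and -1.20 without empty vector replicate 3. Neutrophil primary granule markers, 9 of 10 measured and 0 of 9 higher with a median difference of -0.97, averaged 10.91, 11.51 and 9.18 with the empty vector and 8.84, 10.37 and 9.35 with MN1. The same 3 arrays were the highest for these markers and for the mast cell, basophil and eosinophil list given beside Itgb7. They were also the highest for cell cycle genes, at 9.90, 10.08 and 9.60 with the empty vector and 8.79, 9.88 and 9.62 with MN1. They were not the highest for monocyte and macrophage markers (9.79, 9.35 and 9.97 against 10.67, 10.11 and 10.38). Nor were they for stromal markers (5.71, 5.82 and 5.75 against 5.58, 5.68 and 5.61). The part of any of these cells in the Vcam1 values was not tested. Icam1 and Icam2, the ligands of the β2 integrins, differed by -0.15 ± 0.35 and -0.12 ± 0.25 (SE). Pecam1, the CD31 molecule of endothelium, platelets and leukocytes, differed by -0.25 ± 0.23 (SE). Cd47, the signal that restrains phagocytes through Sirpa, had the same mean of 11.89 in both groups, with an SE of 0.16 on the difference. Its second probe set differed by 0.25 ± 0.33 (SE), and Sirpa itself by 0.33 ± 0.15 (SE; adjusted p = 0.589) without overlap.

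**Figure D3:**
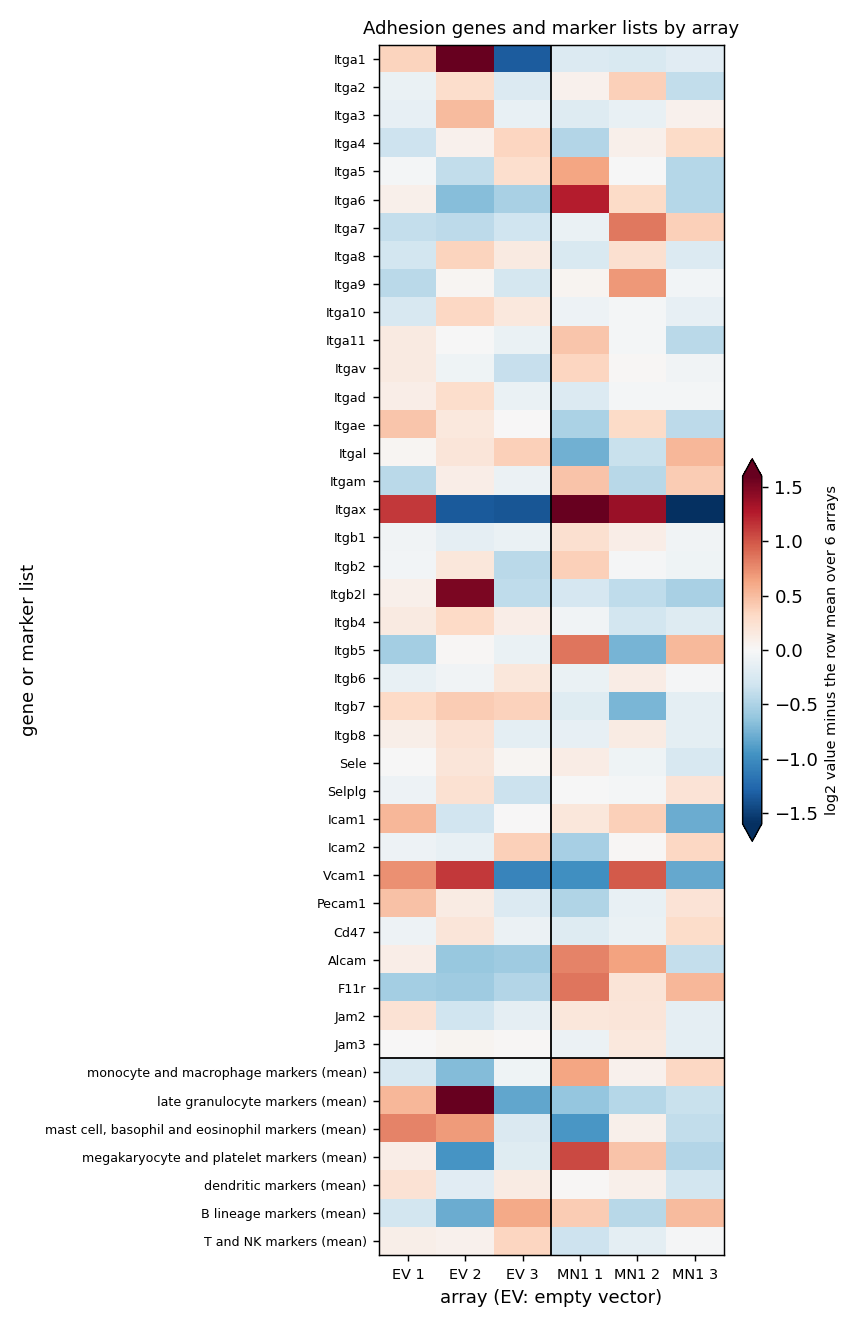
Each row is one adhesion gene, or the mean of a cell type marker list (bottom 7 rows), and each column one array; colour is the log2 value minus the row's mean over the 6 arrays. F11r and Itgb7 change colour at the line between groups, whereas Itgax, Vcam1, Itga1 and Itgb2l differ most between arrays of one group.

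Promoter sequences are printed for the 3 genes with non-overlapping groups that the table of promoters holds, to show what lies upstream of a gene that was higher (F11r, and by a small margin Itgb1) and of one that was lower (Itgb7). The sequences are from RefSeq, build GRCm38.p6, and run from 250 bases before to 50 bases after the annotated start, 5′ to 3′ on the gene's strand. Of the 36 genes, 23 had an entry. Capitals mark matches on either strand to GAGGAA, the core of sites for the myeloid factor PU.1, or to GGGCGG, the GC box.
F11r, chr1:171437311-171437610, plus strand: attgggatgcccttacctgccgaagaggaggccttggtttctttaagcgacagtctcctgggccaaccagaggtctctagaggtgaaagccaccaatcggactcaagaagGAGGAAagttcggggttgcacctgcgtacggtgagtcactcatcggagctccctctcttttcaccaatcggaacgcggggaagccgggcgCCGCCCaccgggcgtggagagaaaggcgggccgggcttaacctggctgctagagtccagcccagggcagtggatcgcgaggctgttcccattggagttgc
Itgb7, chr15:102231886-102232185, minus strand: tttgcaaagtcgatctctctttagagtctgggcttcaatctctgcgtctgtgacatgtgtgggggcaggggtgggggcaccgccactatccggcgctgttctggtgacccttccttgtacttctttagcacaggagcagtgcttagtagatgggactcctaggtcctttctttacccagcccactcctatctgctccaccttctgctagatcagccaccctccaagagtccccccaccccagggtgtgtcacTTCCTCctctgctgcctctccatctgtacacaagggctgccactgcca
Itgb1, chr8:128685404-128685703, plus strand: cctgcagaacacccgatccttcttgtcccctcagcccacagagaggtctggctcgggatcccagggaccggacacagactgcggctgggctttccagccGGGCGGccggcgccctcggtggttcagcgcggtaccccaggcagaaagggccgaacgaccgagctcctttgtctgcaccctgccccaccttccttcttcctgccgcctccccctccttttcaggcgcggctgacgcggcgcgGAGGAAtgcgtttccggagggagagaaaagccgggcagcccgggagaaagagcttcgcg
GAGGAA occurred in all 3 promoters, in F11r and Itgb1 on the gene's strand and in Itgb7 on the opposite strand just after the start, where it reads TTCCTC. It occurs in 28.3% of all 32851 promoters in the table and in 12 of 26 promoters of adhesion genes. GGGCGG occurred in F11r and Itgb1, in 35.7% of all promoters and in 14 of the 26. The nuclear receptor half-site AGGTCA, searched because MN1 is known to work with retinoid receptors, was in none of the 3; it is in 16.3% of all promoters and in 1 of the 26. TGTGGT, the core of RUNX sites, was likewise in none of the 3, and is in 16.8% of all promoters and in 3 of the 26. No 2 matches overlapped in the printed sequences.

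Genes around the integrins were counted from lists of the pathway. None passed an adjusted p under 0.05 by limma in any of the 4 lists. The counts below stand beside 43.3% of all genes higher with MN1 and, at an unadjusted p under 0.05, 4.17% higher and 4.23% lower. The share of genes higher depends on the setting. It was 50.1% with arrays centred on the median of all probe sets, and 57.2% with the dimmest 40% of genes removed. The lists were not recounted under those settings. Of 40 genes for integrin activation and linkage to actin, 28 were higher with MN1 and 12 lower; their median difference was 0.10 and, at an unadjusted p under 0.05, 2 higher and 1 lower. The largest differences there were in Tns1, an adaptor of focal adhesions, at 1.27 ± 0.38 (SE, log2), Cytip, a cytohesin-binding protein that loosens LFA-1 adhesion, at -1.09 ± 0.18, and the kinase gene Src at 0.89 ± 0.68. Tns1 and Cytip had non-overlapping groups and Src did not.

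Of 29 integrin ligands of the matrix and plasma, 11 were higher and 18 lower (median difference -0.12), and 1 in each direction had an unadjusted p under 0.05. Mfge8, the bridge between dying cells and the Itgav integrins of phagocytes, differed by 1.20 ± 0.61 (SE, log2), Vwf by 0.90 ± 0.94 and the laminin chain gene Lamc1 by 0.67 ± 0.12, the last without overlap. These were the largest absolute differences of the list, and all were higher with MN1. Of the 29 genes, MN1 lay above without overlap in 2, against 5.71% of all genes, and below in 7, against 10.3%. Of 19 carriers and enzymes of selectin ligands, 11 were higher and 8 lower (median difference 0.02), and 1 higher and 2 lower had an unadjusted p under 0.05. Cd24a, a P-selectin ligand of immature and lymphoid cells, differed by -1.44 ± 0.40 (SE), Cd34 by 0.91 ± 0.19 and the sialyltransferase gene St3gal6 by 0.73 ± 0.53. Cd24a and Cd34 had non-overlapping groups, in opposite directions.

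Of 22 other adhesion receptors of leukocytes and platelets, 12 were higher and 10 lower (median difference 0.20), and 1 in each direction had an unadjusted p under 0.05. The scavenger and thrombospondin receptor gene Cd36 differed by 1.55 ± 0.89 (SE, log2), Cadm1, an adhesion molecule of mast cells and other cells, by 1.31 ± 0.44 and the platelet glycoprotein gene Gp9 by 0.97 ± 0.44. Cd36, Cadm1 and Gp9 all had overlapping groups. Non-overlapping groups were seen in 7 of 40 genes of integrin activation, 9 of 29 matrix ligands, 4 of 19 selectin ligand genes and 2 of 22 other receptors, beside 16.0% of all genes.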

How the data were processed

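Total RNA (200 ng per array) was biotin-labelled with a whole-transcript kit, per the labels' protocols. The authors deposited log2 values for 35557 probe sets on 6 arrays; the submitters' processing notes name RMA. That the scale is log2 was inferred from the range, 2.29 to 14.80. RMA compresses dim values, and no detection call was used.

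The 2016 platform annotation gives exactly 1 symbol for 21789 probe sets and several for 1621 (3 of these include Itgam); the latter were not used. Per gene the probe set with the highest overall mean was kept, leaving 19938 genes. The test was limma 3.58.1 in R 4.3.3 (lmFit, eBayes, two-sided, Benjamini-Hochberg over all genes, threshold 0.05, no block, 4 residual degrees of freedom), tested on simulated data. Differences are MN1 minus empty vector, with moderated SE. List levels are means of log2 values. Genes were named by role, with every array's value for genes whose groups did not overlap, the 8 next largest differences, and their partner chains. Members, lists and motifs were chosen with earlier results of these data known.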

Additional observations from a re-analysis of the deposited data

How the results depend on the processing

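Across the alternatives (quantile normalization, arrays centred on a median, the dimmest 40% of genes removed, probe sets averaged per gene, every probe set tested, array weights, eBayes with a trend and robust prior, the replicate block, a threshold of 0.1 and each array left out), limma called 0 genes at its adjusted threshold, and the smallest adjusted p of an adhesion gene was 0.438. Centring on the median of the genes tested was added after seeing the data. With arrays centred on the median of all probe sets, 18 of 36 adhesion genes were higher with MN1, beside 50.1% of all genes. Their groups did not overlap in 5, beside 12.8% of all genes. With the dimmest 40% of genes removed, 14 of 28 were higher, beside 57.2%. F11r, Itga7, Itgb7 and Itgb4 had an unadjusted p under 0.05 under all 14 settings that give member values. With each array left out in turn, the adhesion genes whose groups did not overlap numbered 6 to 11, beside 21.5% to 31.5% of all genes, since 2 arrays are more easily separated from 3; those with an unadjusted p under 0.05 numbered 4 to 9, beside 4.54% to 9.80% of all genes. Without MN1 replicate 3 they were 9, beside 6.68% of all genes. With the replicate block 7 adhesion genes had an unadjusted p under 0.05, Alcam, Itga6 and Itga9 besides the 4 named, beside 9.93% of all genes. The labels do not say whether equal numbers pair the samples. The deviations from the group means of same-numbered arrays correlated at 0.13, 0.0747 and 0.324. Those of differently numbered arrays correlated at -0.498 to 0.437, the highest being empty vector replicate 1 with MN1 replicate 2. With 3 arrays per group these correlations cannot decide whether the samples are paired.

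Of the 36 genes, 13 changed sign under at least 1 setting, and 23 did not. Centring on the median of all probe sets gave 0.02 for Itga11, 0.03 for Itgb6 and 0.03 for Cd47, and centring on the genes tested 0.00 for Cd47. Quantile normalization gave 0.07 for Itga11, 0.06 for Itgb6 and 0.04 for Jam3. Array weights gave 0.05 for Itga4, 0.04 for Itgb6 and 0.00 for Cd47. Cd47 was 0.12 as the mean of its probe sets and 0.25 on its other probe set. With each array left out the difference ran from -1.20 to 0.27 for Itga1, -0.15 to 0.23 for Itga2, -0.27 to 0.04 for Itga3, -0.23 to 0.17 for Itga4, -0.17 to 0.37 for Itga5, -0.32 to 0.01 for Itga8, -0.24 to 0.20 for Itga11, -0.07 to 0.08 for Itgb6, -0.03 to 0.27 for Selplg, -0.38 to 0.20 for Icam1, -0.31 to 0.11 for Icam2, -0.15 to 0.02 for Jam3 and -0.15 to 0.09 for Cd47. The cause was not tested. With 3 arrays per group, precision is limited.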
